A study of Acomys cahirinus and Mus musculus with 24 samples.

Results

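The subject is a set of 10 imprinted genes that act on growth: Igf2, H19, Dlk1, Meg3, Mest, Peg3, Plagl1, Cdkn1c, Ndn and Grb10. They were chosen by gene symbol from the count table that holds both species, and all 10 were found there among 14514 genes, as well as in the separate table of each species. All 10 passed the filter on low counts, which removed 0 of the 14514 genes. The samples were RNA-seq libraries from the back skin of adult spiny mice (Acomys cahirinus, a rodent known to heal skin wounds with little scar) and adult CD-1 laboratory mice (Mus musculus, an outbred stock). Skin was taken unwounded, called day 0, or as the wound itself 7 or 14 days after a full-thickness cut of 8 mm. No genotype, transgene or drug separates the groups: they differ in species and day. The 23 libraries analysed comprised 3 of Mus skin at day 0 and 4 in each of the other 5 groups, namely Mus day 7, Mus day 14, and Acomys day 0, day 7 and day 14. A further library of Mus day 0 skin, labelled replicate 3, had been left out by the submitters after quality checks, and a pooled, nuclease-normalised Acomys library was not used here. Nothing in the labels ties each library to an animal of its own, and a p-value here therefore reflects how far the libraries of a group scatter, which may be technical.

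Genomic imprinting is the silencing of a gene copy according to the parent it came from. Imprinted genes are unusually rich in regulators of fetal growth, and many form a co-regulated network that is strongly expressed before birth and is shut down in most tissues afterwards. Paternally expressed members such as Igf2, Dlk1, Mest, Peg3 and Plagl1 mostly favour growth or the maintenance of progenitor cells, and maternally expressed ones such as Cdkn1c and Grb10 mostly restrain growth. The libraries do not separate parental alleles, so what follows is the total RNA of each gene and says nothing of its imprint.

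In the mouse annotation GENCODE vM21, build GRCm38, Igf2 lies on chromosome 7 from 142650766 to 142666816 on the minus strand. H19 lies on the same strand from 142575529 to 142578143, which leaves 72.62 kb between the genes, and Cdkn1c lies further along the chromosome from 143458339 to 143461050. Dlk1 and Meg3 form another such pair on the plus strand of chromosome 12, from 109452823 to 109463336 and from 109541001 to 109571726, with 77.66 kb between them. Peg3 (6703892 to 6730431) and Ndn (62346569 to 62350262) are also on chromosome 7, in separate imprinted domains. Mest is on chromosome 6 (30723547 to 30748465), Plagl1 on chromosome 10 (13060504 to 13131694) and Grb10 on chromosome 11 (11930508 to 12038683). H19 and Meg3 are annotated as long non-coding RNAs and the other 8 as protein-coding. The submitters' notes name the older mouse build mm9, so these positions describe the genes and were not matched to reads.

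Levels are given as CPM, the counts of a gene relative to the TMM-scaled library total, from tables of 5980683 to 9853153 counts per library. A gene was called changed when edgeR's quasi-likelihood test gave an adjusted p under 0.05 over all 14514 genes. Levels compared between the species can also differ through the reference each was counted against: mouse genes on one side and an assembled Acomys transcriptome on the other. Changes with time are ratios within a species, where such a constant factor cancels. Values are not adjusted for gene length, so levels are not compared between genes. The small structural RNA Rn7s1 took 4.08 to 15.0% of the counts in Mus and 0.00147 to 0.174% in Acomys, and leaving out such RNAs changed no call on the 10 genes. In whole tissue, a change in the number of cells that express a gene cannot be told apart from a change in RNA per cell.

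Wounds held more RNA of most of the 10 genes than unwounded skin did, in both species, and by day 14 all 10 had risen in Acomys. Against day 0, 7 of the 10 rose in Mus at day 7 and 0 fell, where 27.0% of all genes rose, 26.7% fell and 53.7% were called in either direction. At day 14 in Mus, 8 rose and 0 fell (21.6% of all genes rose, 22.1% fell and 43.8% were called). In Acomys 9 rose at day 7 and 0 fell, against 30.4% of all genes that rose, 31.4% that fell and 61.8% called. All 10 rose at day 14 in Acomys, against 18.9% of all genes that rose, 20.0% that fell and 38.9% called. The median log2 change of the 10 genes was 1.74 and 2.07 at days 7 and 14 in Mus and 1.45 and 2.16 in Acomys, while the median of all genes lay between -0.03 and 0.01 in these 4 comparisons. The wound libraries lay wholly above the skin libraries for 7 and 8 of the 10 genes in Mus at days 7 and 14, where 58.8% and 49.5% of all genes had groups that did not overlap in one direction or the other. In Acomys this held for 8 and 10 of the 10 genes, against 52.9% and 36.7% of all genes. The comparisons of days 7 and 14 use the same skin libraries, so they are not independent of each other. The 10 genes were chosen with earlier results of these data known, so these shares describe the 10 and are no test of the set.

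**Figure D1:**
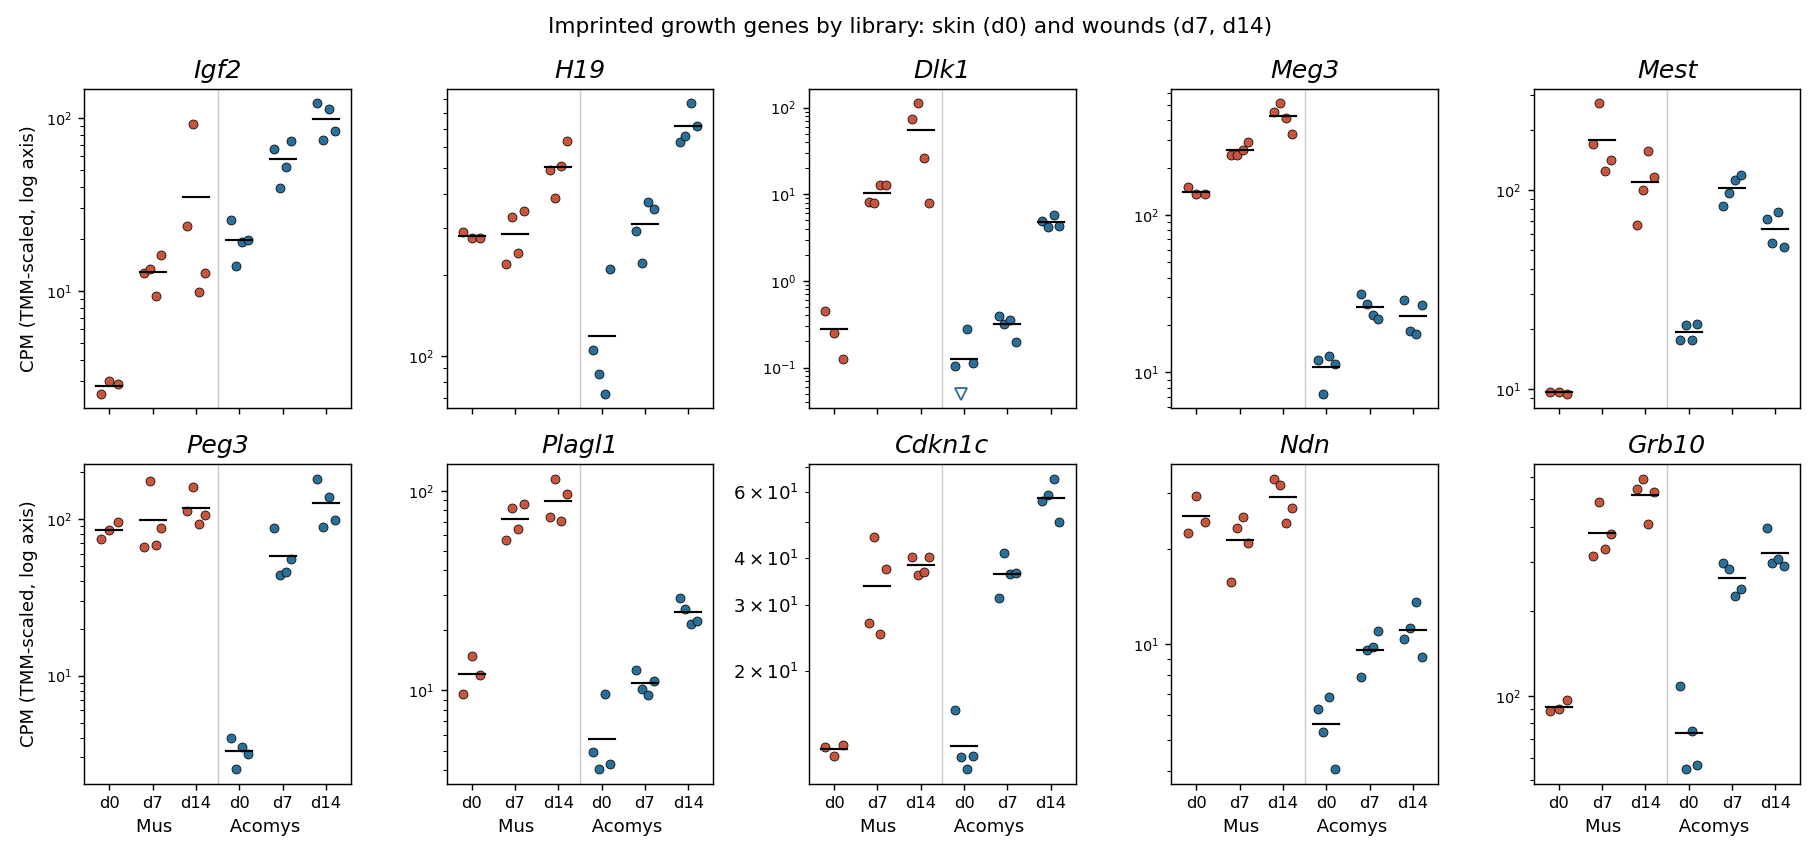
CPM of each of the 10 genes in each library (points; log axes, a different range per panel), by day, with Mus in red on the left of the grey line and Acomys in blue on the right; black bars are group means, and the open triangle marks the Acomys skin library with 0 Dlk1 counts. Most panels step up from skin to wound in each species, while Peg3, H19 and Ndn stay near their skin level in Mus day 7 wounds and climb in Acomys.

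Igf2 encodes insulin-like growth factor 2, a secreted ligand that drives fetal growth through the IGF1 and insulin receptors. In Mus skin it stood at 2.55, 3.01 and 2.88 CPM, in day 7 wounds at 12.6, 13.4, 9.33 and 16.2 CPM, and in day 14 wounds at 23.6, 92.5, 9.9 and 12.7 CPM. Acomys skin had 25.6, 14.0, 19.2 and 19.8 CPM, day 7 wounds 66.4, 39.3, 51.9 and 73.6 CPM, and day 14 wounds 121, 74.9, 113 and 84.6 CPM. Every wound library of a species was above every skin library of that species, and Acomys skin reached or passed the level of most Mus wounds. Igf2 rose in Mus by 2.18 ± 0.67 (log2, SE; 4.53-fold, adjusted p = 0.0104) at day 7 and 3.60 ± 0.66 (12.1-fold, adjusted p = 1.9e-04) at day 14. In Acomys it rose by 1.55 ± 0.47 (2.93-fold, adjusted p = 0.00765) and 2.32 ± 0.48 (4.99-fold, adjusted p = 6.5e-04). The further difference between days 14 and 7 in Mus was 1.42 ± 0.50 (adjusted p = 0.0481). Its call was lost when any of the 4 day 7 libraries was left out (1.29 to 1.54), or with only the compared groups in the model (1.42, adjusted p = 0.191). Without day 14 replicate 2 the difference was 0.26 (adjusted p = 0.589), and the rise from skin to day 14 was 2.44 in place of 3.60. Replicate 2 of Mus day 14 had the highest summed level of 9 fibroblast markers in its group (134492 CPM against 110372 to 123206 in the other 3) and the lowest of 10 adult muscle markers (12.4 CPM against 26.6 to 6394). Replicate 3 of Mus day 14, at 26.6 CPM of the same muscle markers, had the lowest Igf2 of its group (9.9 CPM). Replicate 3 of Mus day 7, at 30.3 CPM of the muscle markers, also had the lowest Igf2 of its group (9.33 CPM). The part of fibroblasts or muscle in the Igf2 values was not tested.

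H19 is a long non-coding RNA whose gene shares enhancers with Igf2, and it restrains growth in fetal tissues. Its level in Mus was 288, 274 and 275 CPM in skin, 219, 329, 241 and 345 CPM at day 7 and 492, 386, 506 and 632 CPM at day 14. In Acomys it was 105, 85.5, 72.4 and 210 CPM in skin, 291, 221, 374 and 353 CPM at day 7 and 622, 656, 869 and 716 CPM at day 14. The Mus day 7 libraries fell on either side of the skin libraries, while in Acomys each day lay wholly above the one before. The Mus difference was 0.02 ± 0.27 at day 7 (adjusted p = 0.961), and at day 14 H19 rose by 0.85 ± 0.28 (1.81-fold, adjusted p = 0.0171). The day 14 call in Mus was lost when skin replicate 2, skin replicate 4 or day 14 replicate 4 was left out, with values of 0.84, 0.84 and 0.72 and adjusted p of 0.0521, 0.0504 and 0.0535. In Acomys H19 rose by 1.39 ± 0.26 (2.62-fold, adjusted p = 8.9e-05) and 2.60 ± 0.27 (6.06-fold, adjusted p = 2.3e-07), and it rose again between days 7 and 14 by 1.21 ± 0.26 (adjusted p = 6.4e-04).

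The count of H19 relative to Igf2 is a ratio within a library. In Mus the library had 91.1 to 113 H19 counts per Igf2 count in skin, 17.4 to 25.8 at day 7 and 4.17 to 51.1 at day 14, the lowest being the day 14 library with the high Igf2. In Acomys the ratio was 3.77 to 10.6 in skin, 4.39 to 7.21 at day 7 and 5.12 to 8.76 at day 14, so the ranges of the 3 days overlapped. Across libraries the Pearson correlation of log2 CPM between Igf2 and H19 was 0.92 over the 12 Acomys libraries and 0.40 over the 11 Mus libraries; these points share days and depth, and the difference between species was not tested.

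**Figure D2:**
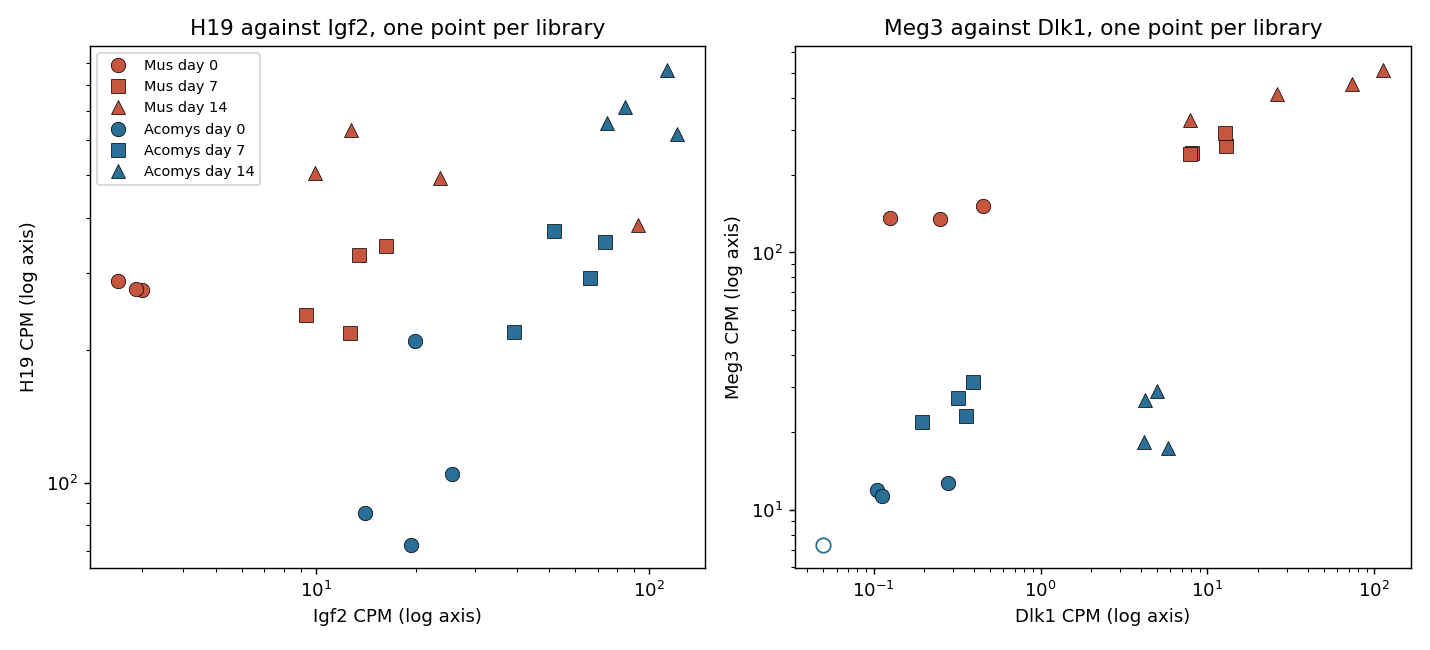
CPM of H19 against Igf2 (left) and of Meg3 against Dlk1 (right), 1 point per library on log axes; colour gives the species and shape the day, and the open circle at the left edge is the Acomys skin library with 0 Dlk1 counts. Acomys points climb along a diagonal for H19 and Igf2, whereas Mus points spread sideways from skin to day 7; for Dlk1 and Meg3 the diagonal is that of Mus.

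Dlk1 encodes a transmembrane protein of the Delta-like family that holds preadipocytes and other progenitors undifferentiated, and its neighbour Meg3 is a maternally expressed long non-coding RNA. Dlk1 was close to undetected in skin: the Mus libraries had 3, 2 and 1 counts and the Acomys libraries 1, 0, 2 and 1. Mus wounds had 8.10, 7.84, 12.8 and 12.7 CPM at day 7 and 72.9, 112, 26.0 and 7.82 CPM at day 14. Acomys wounds had only 4, 3, 4 and 2 counts at day 7, and 4.97, 4.17, 5.80 and 4.24 CPM at day 14. The day 14 libraries of Mus ran from 7.82 to 112 CPM, and the lowest of them was level with day 7. Dlk1 rose in Mus at day 7 (log2 5.21 ± 0.93, adjusted p = 8.9e-05) and day 14 (7.6 ± 0.87, adjusted p = 7.7e-07), and it rose between those days by 2.39 ± 0.49 (adjusted p = 0.00134), although these groups overlapped and the call was lost with only the compared groups in the model (2.39, adjusted p = 0.0532). Because the skin counts were so few, the summed counts give the ratio only loosely: 39.0 at day 7, with an exact 95% interval of 17.7 to 107 that covers counting error alone, and 190.3 at day 14 (87.2 to 520). In Acomys Dlk1 rose at day 14 by 5.17 ± 0.99 (adjusted p = 3.0e-04), a ratio of summed counts of 40.5 (15.6 to 150.2). At day 7 the Acomys ratio was 2.66 (0.821 to 11.2), and the log2 difference of 1.30 ± 1.57 did not pass the test (adjusted p = 0.491). In the table of Acomys alone, which has 24 expected counts of Dlk1 over the 4 day 7 libraries against 13 counts in the shared table, the same difference was 2.31 ± 0.55 and passed (adjusted p = 0.0022).

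Meg3 had a higher CPM in Mus than in Acomys on every day and rose in the wounds of each species. How complete the Acomys sequence counted as Meg3 is was not checked. Mus libraries had 151, 135 and 137 CPM in skin, 243, 241, 259 and 292 at day 7, and 452, 513, 413 and 326 at day 14. Acomys libraries had 11.9, 7.32, 12.7 and 11.4 CPM in skin, 31.4, 27.2, 23.2 and 21.9 at day 7, and 28.9, 18.3, 17.4 and 26.6 at day 14. The 3 Mus days formed separate steps, whereas in Acomys days 7 and 14 overlapped. The rise in Mus was 0.88 ± 0.18 at day 7 (adjusted p = 3.6e-04) and 1.60 ± 0.19 at day 14 (adjusted p = 6.2e-07), with 0.72 ± 0.17 between those days (adjusted p = 0.00314). In Acomys Meg3 rose by 1.26 ± 0.18 (adjusted p = 4.1e-06) and 1.08 ± 0.18 (adjusted p = 7.6e-05), and days 14 and 7 differed by -0.18 ± 0.17 (adjusted p = 0.422). The correlation of Dlk1 with Meg3 was 0.97 over the Mus libraries and 0.48 over the Acomys libraries, as a description. Each of these genes has 2 rows in the table of Mus alone, which were summed here; the reads of such copies cannot be assigned with certainty.

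Mest encodes an enzyme of the alpha/beta-hydrolase family that is linked to adipocyte growth and is a marker of mesoderm in the embryo. In Mus skin it had 9.73, 9.66 and 9.50 CPM, in day 7 wounds 171, 272, 124 and 141, and in day 14 wounds 66.9, 99.8, 157 and 116. In Acomys skin it had 17.6, 21.0, 17.7 and 21.4 CPM, in day 7 wounds 83.2, 96.1, 112 and 119, and in day 14 wounds 71.4, 53.9, 77.3 and 51.7. The level was highest on day 7 in each species on average, and no wound library came near the skin libraries. Mest rose by 4.20 ± 0.30 (18.4-fold, adjusted p = 5.7e-10) and 3.51 ± 0.30 (11.4-fold, adjusted p = 1.1e-08) in Mus, and by 2.40 ± 0.24 (5.29-fold, adjusted p = 3.5e-08) and 1.71 ± 0.24 (3.28-fold, adjusted p = 1.0e-05) in Acomys at days 7 and 14. From day 7 to day 14 it fell by 0.69 ± 0.23 in each species, with adjusted p of 0.0338 in Mus and 0.0174 in Acomys. The Mus fall was not called when day 7 replicate 1 or 2 or day 14 replicate 1, 2 or 4 was left out (values -0.70, -0.40, -0.51, -0.64 and -0.72). Nor was it called in the table of Mus alone (-0.75, adjusted p = 0.109) or with only the compared groups in the model (-0.68, adjusted p = 0.166). The Acomys fall was not called without day 7 replicate 4 or day 14 replicate 2 or 4 (-0.61, -0.62 and -0.60).

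The size of the Mest rise depended on the table. In the tables made for each species alone it was 42.8-fold and 25.4-fold in Mus and 21.9-fold and 12.1-fold in Acomys, more than the fold in the shared table in each case. The gap lay in skin: the shared table held 218 Mest counts over the Mus skin libraries where the Mus table held 118, and 651 over the Acomys skin libraries where the Acomys table held 245. The ratio of shared to own counts was 1.85 and 2.66 in skin but 0.786, 0.831, 0.717 and 0.792 in the 4 wound groups, while the median over all genes was 0.684 to 0.739 in every group. How the shared table was derived is not given in the sources used here, so the Mest level in skin, and each comparison of it between species or against wounds, is known only to within this factor.

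Peg3 encodes a large zinc-finger protein, paternally expressed, that is found in muscle satellite cells and other tissue stem cells. Mus skin had 75.0, 85.6 and 95.8 CPM, day 7 wounds 66.8, 176, 68.0 and 87.5, and day 14 wounds 114, 161, 93.0 and 107. Acomys skin had 3.97, 2.52, 3.48 and 3.15 CPM, day 7 wounds 88.1, 44.3, 46.1 and 55.7, and day 14 wounds 182, 89.3, 138 and 98.4. Mus libraries of the 3 days overlapped, whereas each Acomys day stood clear of the one before. In Acomys Peg3 rose by 4.14 ± 0.37 (17.7-fold, adjusted p = 8.0e-09) at day 7 and 5.26 ± 0.38 (38.3-fold, adjusted p = 3.1e-09) at day 14, and by 1.11 ± 0.29 between those days (adjusted p = 0.00412). In Mus the differences were 0.22 ± 0.32 (adjusted p = 0.593) and 0.47 ± 0.32 (adjusted p = 0.245), and the first turned to -0.21 when day 7 replicate 2, the library at 176 CPM, was left out. An antisense transcript overlaps Peg3, and whether counting used strand is not given in the sources used here, so its reads and those of Peg3 cannot be told apart.

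In Acomys the summed level of 10 embryonic muscle and myogenesis markers stood wholly higher on each later day, as did Peg3, Igf2, H19 and Cdkn1c. It was 15.3 to 23.4 CPM in Acomys skin, 114 to 222 CPM at day 7 and 305 to 470 CPM at day 14, with at most 1 of the 10 markers at 0 in any of these libraries. In Mus the sum went from 159 to 209 CPM in skin to 4.73 to 56.6 CPM at day 7 and 6.81 to 29.8 CPM at day 14. Up to 4 of the 10 were at 0 there. Peg3 did not pass the test against skin in these Mus wounds, while Igf2 and Cdkn1c rose in them. The median log2 change of the 10 markers at day 7 was -0.21 in Mus and 1.43 in Acomys. The 9 fibroblast markers summed to 12964 to 37979, 28677 to 37500 and 40436 to 64134 CPM on the 3 days in Acomys and to 101836 to 112227, 74736 to 82572 and 110372 to 134492 CPM in Mus. The 10 adult muscle markers summed to 5207 to 13342, 779 to 1534 and 5608 to 11969 CPM in Acomys and to 11782 to 13612, 30.3 to 3009 and 12.4 to 6394 CPM in Mus. Summed levels of 7 macrophage markers were higher in wounds, at 1039 to 1193, 2878 to 3853 and 1943 to 2606 CPM on the 3 days in Mus. In Acomys they were at 232 to 509.9, 1635 to 2681 and 708 to 1012 CPM. The 7 endothelial markers were also higher in wounds, at 202 to 242, 699 to 890.3 and 477 to 686 CPM in Mus. In Acomys they were at 295 to 346, 494 to 637 and 419.6 to 451 CPM. The 7 adipocyte markers were lower in wounds, at 821 to 1067, 168 to 252 and 83.2 to 279 CPM in Mus. Their Acomys levels were 958 to 1500.1, 51.9 to 68.4 and 199.6 to 326 CPM. Up to 4 of them were at 0 in a Mus day 14 library and up to 1 in an Acomys day 7 library. The 6 Schwann cell markers were lower in wounds too, at 254 to 277, 88.6 to 115 and 108 to 153 CPM in Mus. Their Acomys levels were 289 to 338, 77.9 to 105 and 146 to 197 CPM. The 8 keratinocyte markers went from 3283 to 4066 CPM in Mus skin to 6302 to 12736 and 6693 to 12457 CPM in wounds. In Acomys they went from 2047 to 3068 CPM to 3303 to 4703 and then 1359.8 to 1835 CPM. A sum can be carried by a few abundant markers. At day 7 the median log2 change of the 8 keratinocyte markers was -0.82 in Mus and -0.39 in Acomys, although both sums rose. For the 9 fibroblast markers the median was 0.23 in Mus at day 7, although their sum fell. The part of these cells in the changes of Peg3, or of the other 9 genes, was not tested.

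Plagl1 encodes a zinc-finger transcription factor that sits high in the imprinted gene network. Mus had 9.58, 14.8 and 12 CPM in skin, 56.8, 81.9, 64.1 and 85.6 at day 7, and 73.9, 115, 70.6 and 96.2 at day 14. Acomys had 4.91, 4.04, 9.61 and 4.27 CPM in skin, 12.6, 10.1, 9.51 and 11.1 at day 7, and 29.2, 25.7, 21.6 and 22.4 at day 14. In Mus the whole step was present by day 7, while in Acomys day 7 touched the highest skin library and day 14 stood apart. Plagl1 rose in Mus by 2.56 ± 0.25 (5.91-fold, adjusted p = 2.0e-08) and 2.87 ± 0.25 (7.3-fold, adjusted p = 1.1e-08), with 0.30 ± 0.20 between the days (adjusted p = 0.308). It rose in Acomys by 0.94 ± 0.24 (1.92-fold, adjusted p = 0.00182) and 2.13 ± 0.23 (4.38-fold, adjusted p = 3.8e-07), with a further rise of 1.19 ± 0.22 between days 7 and 14 (adjusted p = 1.3e-04).

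The remaining 3 genes are known as brakes on growth or division. Cdkn1c encodes the cyclin-dependent kinase inhibitor p57, which holds cells out of the cycle. It was at 12.6, 11.9 and 12.8 CPM in Mus skin and 15.8, 11.9, 11 and 11.9 CPM in Acomys skin, which is the same range. It was 26.9, 45.4, 25.1 and 37.4 CPM at day 7 and 40.3, 36.1, 36.8 and 40.3 CPM at day 14 in Mus, and 31.3, 41.2, 36.2 and 36.4 CPM, then 56.7, 58.9, 65.0 and 49.9 CPM, in Acomys. Cdkn1c rose in both species at day 7, by 1.44 ± 0.18 in Mus (adjusted p = 5.3e-07) and 1.51 ± 0.16 in Acomys (adjusted p = 3.0e-08), and all Acomys wounds at day 14 were above all Mus wounds. The day 14 rise was 1.63 ± 0.18 in Mus (3.09-fold, adjusted p = 2.0e-07) and 2.18 ± 0.16 in Acomys (4.54-fold, adjusted p = 1.1e-09). Between days 7 and 14 it rose in Acomys by 0.67 ± 0.15 (adjusted p = 7.7e-04), and in Mus the difference was 0.19 ± 0.15 (adjusted p = 0.402).

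Grb10 encodes an adaptor protein that binds the insulin and IGF1 receptors and dampens their signal. Mus skin had 88.2, 89.5 and 96.6 CPM, day 7 wounds 315, 490, 334 and 375, and day 14 wounds 546, 592, 409 and 530. Acomys skin had 109, 54.9, 74.9 and 56.8 CPM, day 7 wounds 298, 282, 226 and 240, and day 14 wounds 395, 298, 306 and 289. Skin and wounds were separate in each species, and the wound days overlapped. Grb10 rose by 2.05 ± 0.21 (4.14-fold, adjusted p = 4.8e-08) and 2.50 ± 0.21 (5.68-fold, adjusted p = 8.8e-09) in Mus and by 1.82 ± 0.19 (3.54-fold, adjusted p = 3.1e-08) and 2.12 ± 0.19 (4.36-fold, adjusted p = 2.6e-08) in Acomys.

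Ndn encodes necdin, a protein of the MAGE family known for restraining cell division in neurons and present in muscle and fat progenitors. Mus libraries had 22.5, 29.5 and 24.4 CPM in skin, 15.8, 23.4, 25.3 and 20.9 at day 7, and 33.3, 31.9, 24.2 and 26.9 at day 14. Acomys libraries had 6.27, 5.30, 6.82 and 4.05 CPM in skin, 7.89, 9.58, 9.78 and 11 at day 7, and 10.4, 11.3, 13.6 and 9.13 at day 14. The Mus days overlapped, and the Acomys wounds were all above Acomys skin and all below every Mus library. In Mus the differences were -0.26 ± 0.18 (adjusted p = 0.235) and 0.19 ± 0.18 (adjusted p = 0.411), and in Acomys Ndn rose by 0.77 ± 0.18 (1.71-fold, adjusted p = 9.5e-04) and 0.99 ± 0.18 (1.98-fold, adjusted p = 1.7e-04).

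**Figure D3:**
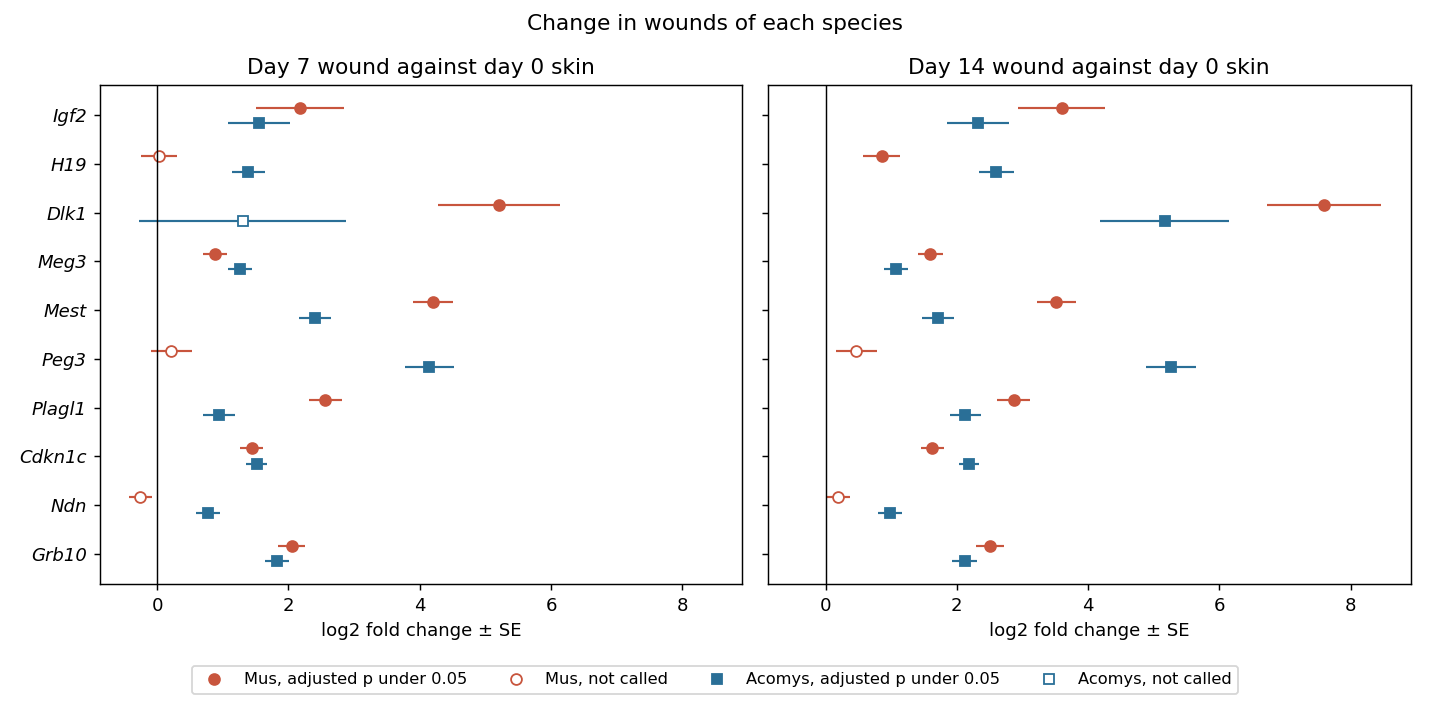
Log2 fold change of each gene in wounds against unwounded skin of the same species, with its SE, at day 7 (left) and day 14 (right); red circles are Mus, blue squares Acomys, and filled symbols passed the test (adjusted p under 0.05). Open symbols are H19, Peg3 and Ndn in Mus and Dlk1 in Acomys at day 7, and Peg3 and Ndn in Mus at day 14; the widest bars belong to Dlk1.

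From day 7 to day 14, 4 of the 10 genes rose further in Mus (Igf2, H19, Dlk1 and Meg3) and Mest fell, where 9.60% of all genes rose, 12.5% fell and 22.1% were called. In Acomys 5 rose (H19, Dlk1, Peg3, Plagl1 and Cdkn1c) and Mest fell, where 22.6% of all genes rose, 21.8% fell and 44.4% were called. The Mus count was the least steady of the counts given: it went to 2 with only the compared groups in the model, and between 2 and 7 as single libraries were left out. There were 2 called without day 7 replicate 1 and 3 without day 14 replicate 2 or 4. The H19 rise between these days in Mus, 0.83 ± 0.25 (adjusted p = 0.0225), was not called without day 7 replicate 1 or 3 or day 14 replicate 4 (0.72, 0.76 and 0.70). Igf2 in Acomys had day 14 libraries all above day 7, but its difference of 0.77 ± 0.45 was not called (adjusted p = 0.174). It was called in the table of Acomys alone, at 0.79 ± 0.19 (adjusted p = 0.00453), and with only the compared groups in the model (adjusted p = 0.0123).

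Between the species on the same day, more of the 10 genes were called lower in Acomys than higher, and Igf2 was called higher on each day. In skin 2 were higher in Acomys (Igf2 and Mest) and 5 lower (H19, Meg3, Peg3, Plagl1 and Ndn), where 34.5% of all genes were higher, 31.2% lower and 65.7% called. At day 7 Igf2 was higher and 7 were lower (35.9% of all genes higher, 34.9% lower, 70.9% called), and at day 14 Igf2 and Cdkn1c were higher and 6 were lower (38.1% higher, 34.6% lower, 72.7% called). The numbers called in either direction, 7, 8 and 8 of the 10, were near the background. Most genes differ between the species in this table. The 5, 7 and 6 called lower in Acomys were above the share of all genes, and the 2, 1 and 2 called higher were below it. This lean of the 10 genes was not tested. The groups did not overlap for 6, 7 and 6 of the 10 genes on the 3 days, against 66.6%, 63.5% and 65.3% of all genes.

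Igf2 was higher in Acomys by 2.80 ± 0.66 in skin (6.96-fold, adjusted p = 0.0010), 2.17 ± 0.49 at day 7 (4.51-fold, adjusted p = 6.4e-04) and 1.52 ± 0.46 at day 14 (2.87-fold, adjusted p = 0.00646). At day 14 the single Mus library at 92.5 CPM lay inside the Acomys range of 74.9 to 121 CPM and the other 3 lay below it. Without that library the day 14 difference was 2.68 (adjusted p = 9.7e-08), and with only the compared groups in the model it was 1.53 and not called (adjusted p = 0.0951). Ordered by mean level, Igf2 ran from Mus skin (2.81 ± 0.24 CPM, SD, n = 3) through Mus day 7 (12.9 ± 2.82, n = 4), Acomys skin (19.7 ± 4.74, n = 4), Mus day 14 (34.7 ± 39.0, n = 4) and Acomys day 7 (57.8 ± 15.3, n = 4) to Acomys day 14 (98.4 ± 22.2, n = 4). The Mus day 14 libraries overlapped all of the other groups but Mus skin.

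Meg3 was lower in Acomys on every day, with log2 differences of -3.70 ± 0.20 in skin (adjusted p = 7.5e-13), -3.32 ± 0.18 at day 7 (adjusted p = 1.1e-12) and -4.22 ± 0.19 at day 14 (adjusted p = 3.7e-14). Its partner Dlk1 was lower in Acomys, with -4.96 ± 0.75 at day 7 (adjusted p = 7.6e-06) and -3.49 ± 0.51 at day 14 (adjusted p = 4.9e-06), and too rare in skin for a comparison. Ndn was lower on the 3 days (-2.18 ± 0.19, -1.15 ± 0.17 and -1.39 ± 0.17), and so was Plagl1 (-1.11 ± 0.26, -2.73 ± 0.22 and -1.85 ± 0.21), all called. Grb10 was not called in skin (-0.31 ± 0.20, adjusted p = 0.177) and was lower in Acomys wounds of days 7 and 14 (-0.53 ± 0.18 and -0.69 ± 0.18, adjusted p = 0.0126 and 0.0019). The day 7 call of Grb10 was lost without Mus day 7 replicate 2 (-0.38), and without Acomys skin replicate 1 the skin difference was called (-0.56).

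Peg3, H19 and Mest closed a gap or changed sides. Peg3 was lower in Acomys skin (-4.69 ± 0.38, adjusted p = 2.1e-09) and at day 7 (-0.76 ± 0.29, adjusted p = 0.0259), and at day 14 the difference was 0.10 ± 0.29 (adjusted p = 0.772). The day 7 call was lost without Mus day 7 replicate 2 (-0.34), or without Acomys day 7 replicate 2, 3 or 4 (-0.65, -0.66 and -0.74), or with only the compared groups in the model (-0.74, adjusted p = 0.0814). The ratio of shared to own Peg3 counts was 0.457, 0.493 and 0.439 in Acomys skin and at days 7 and 14. In Mus it was 0.707, 0.713 and 0.728. The shared table thus held a smaller part of the Peg3 counts of Acomys, and each Peg3 difference between species is known only to within this factor. H19 was lower in Acomys skin (-1.24 ± 0.27, adjusted p = 4.7e-04), with differences of 0.13 ± 0.25 at day 7 (adjusted p = 0.665) and 0.51 ± 0.25 at day 14 (adjusted p = 0.0779). The day 14 value of H19 was called with only the compared groups (0.52, adjusted p = 0.0126) and without Mus day 14 replicate 4 (0.63, adjusted p = 0.0461). Mest was higher in Acomys skin by 1.01 ± 0.29 (adjusted p = 0.0040) and lower in wounds (-0.79 ± 0.23 on each day, adjusted p = 0.0041 on each), with the doubt on its skin counts given above. Cdkn1c differed by 0.03 ± 0.18 and 0.11 ± 0.15 in skin and at day 7 and was higher in Acomys by 0.59 ± 0.15 at day 14 (adjusted p = 0.00128).

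**Figure D4:**
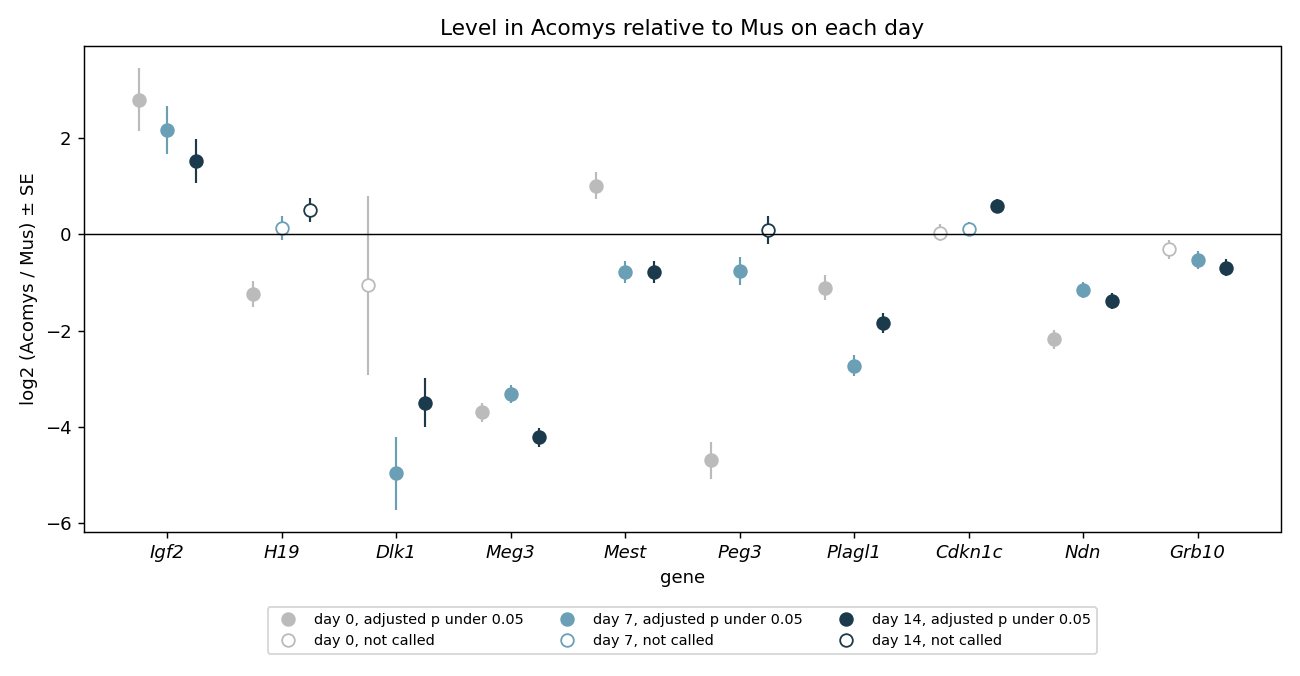
Log2 ratio of the level in Acomys to that in Mus for each gene, with its SE, in skin (grey), day 7 wounds (light blue) and day 14 wounds (dark blue); points above 0 are higher in Acomys, and filled points passed the test (adjusted p under 0.05). Igf2 stays above 0 on all 3 days, Meg3, Plagl1 and Ndn stay below, and Peg3 moves from -4.69 in skin to 0.10 at day 14.

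The change from skin to wound itself differed between the species for 5 of the 10 genes at day 7, with 3 changes greater and 2 smaller in Acomys (17.1% of all genes greater, 18.7% smaller, 35.8% called). At day 14 it differed for 4, with 3 greater and 1 smaller (13.1% greater, 12.0% smaller, 25.1% called). Peg3 differed most: the Acomys change exceeded the Mus change by 3.93 ± 0.48 (adjusted p = 3.4e-06) at day 7 and 4.79 ± 0.48 (adjusted p = 1.0e-06) at day 14. H19 rose more in Acomys by 1.37 ± 0.37 (adjusted p = 0.00698) and 1.75 ± 0.37 (adjusted p = 0.00174), and the change of Ndn was greater in Acomys by 1.03 ± 0.25 (adjusted p = 0.00335) and 0.80 ± 0.25 (adjusted p = 0.0242). The day 14 value of Ndn was not called without Mus skin replicate 2, Acomys skin replicate 4 or Acomys day 14 replicate 3 (0.68, 0.67 and 0.68), or without the 3 Mus wound libraries poor in muscle markers (0.76, adjusted p = 0.0573). Mest rose less in Acomys than in Mus, with differences of -1.79 ± 0.36 (adjusted p = 6.8e-04) and -1.80 ± 0.37 (adjusted p = 0.00117). In the tables of each species alone Mest rose by 5.42 and 4.67 in Mus and by 4.45 and 3.60 in Acomys. The gap between species was narrower there and was not tested across those tables, and the doubt on Mest skin counts given above applies. Plagl1 rose less in Acomys at day 7, with -1.62 ± 0.34 (adjusted p = 8.2e-04). For Plagl1 at day 14 the difference was -0.74 ± 0.33 (adjusted p = 0.111).

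For the other genes no difference of changes was called. That of Igf2 was -0.63 ± 0.82 at day 7 (adjusted p = 0.594) and -1.28 ± 0.80 at day 14 (adjusted p = 0.266), so the rise of Igf2 in wounds was not shown to differ between the species, although the SE at day 7 is too wide to call them alike. Cdkn1c had differences of 0.08 ± 0.23 and 0.55 ± 0.23 (adjusted p = 0.836 and 0.0826), Meg3 of 0.38 ± 0.26 and -0.52 ± 0.26 (adjusted p = 0.260 and 0.148) and Grb10 of -0.22 ± 0.27 and -0.38 ± 0.27 (adjusted p = 0.554 and 0.323). At day 14 the value of Cdkn1c was called with only the compared groups in the model (0.55, adjusted p = 0.0291) and without Acomys skin replicate 1 (0.68, adjusted p = 0.0341), and that of Meg3 without Acomys skin replicate 2 (-0.66, adjusted p = 0.0496). For Dlk1 the counts in skin were too few: the differences were -3.90 ± 2.54 (adjusted p = 0.247) and -2.43 ± 2.35 (adjusted p = 0.483), and the first was called by the DESeq2 Wald test (-3.87, adjusted p = 0.00796) and with only the compared groups (-3.88, adjusted p = 0.00838).

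The 10 genes moved together across libraries to varying degrees. With each species' mean subtracted, the Pearson correlations of log2 CPM among the 45 pairs ran from 0.26 to 0.95, with a median of 0.74 over the 23 libraries, whose points share day and depth. Within Mus the median was 0.59 (lowest -0.23) and within Acomys 0.84 (lowest 0.37). The closest pair was Grb10 with Cdkn1c at 0.95, and Grb10 was also the closest of the 10 to Igf2 (0.89), Meg3 (0.90), Mest (0.86) and Plagl1 (0.92). H19 and Peg3 were closest to each other at 0.86, and Ndn was closest to Peg3 at 0.79. Among all 14513 other genes of the table, the 5 whose pattern was most like that of Igf2 were Piezo2 (0.94), Angptl1 (0.92), Gnas (0.92), Thbs2 (0.91) and Lphn1 (0.91). Piezo2 is a mechanically gated ion channel, Angptl1 an angiopoietin-like secreted protein, Thbs2 a matrix thrombospondin, Lphn1 an adhesion receptor, and Gnas another imprinted gene, encoding the stimulatory G protein alpha subunit. H19 ranked 1153 in that order and Dlk1 ranked 34.

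Other genes of the same imprinted domains differed in direction from one another. In the Dlk1 and Meg3 domain, the retrotransposon-derived gene Rtl1 and the non-coding RNAs Rian and Mirg were lower in Acomys skin, with log2 differences of -3.40 ± 0.29, -3.83 ± 0.18 and -4.37 ± 0.38 (adjusted p = 1.9e-09, 5.5e-14 and 2.3e-09), where that of Meg3 was -3.70. Rtl1 rose in Mus day 14 wounds from 16.2 ± 1.10 CPM (SD, n = 3) to 55.7 ± 14.0 (n = 4), by 1.78 ± 0.24 (adjusted p = 3.4e-06). From day 7 to day 14 Mirg rose in Mus (0.76 ± 0.23, adjusted p = 0.0174) and fell in Acomys (-0.91 ± 0.32, adjusted p = 0.0225). Dio3, which encodes a deiodinase that inactivates thyroid hormone, first rose from skin to day 7. The rise was 5.26 ± 1.05 in Mus (adjusted p = 2.3e-04) and 4.71 ± 0.52 in Acomys (adjusted p = 7.8e-08). Between days 7 and 14 Dio3 fell by 2.61 ± 0.69 in Mus (adjusted p = 0.00832) and 2.39 ± 0.41 in Acomys (adjusted p = 6.1e-05), while Dlk1 rose in both. Dio3 was near the floor in Mus: the table of Mus alone had 0 to 2 expected counts per skin library and 1 to 8 at day 14. In the Peg3 domain, the zinc-finger gene Zim1 rose in Acomys from 1.21 ± 0.54 CPM (n = 4) in skin to 44.2 ± 13.7 (n = 4) at day 14, by 5.14 ± 0.39 (adjusted p = 3.7e-09), and its change exceeded that in Mus by 3.33 ± 0.60 (adjusted p = 4.0e-04). Usp29, whose transcripts begin at the Peg3 promoter, stood at a mean of 16.2 CPM in Acomys skin and had 0 counts in the 3 Mus skin libraries. The log2 difference of Usp29 between species was 10.1 in skin, 8.13 at day 7 and 8.08 at day 14. The part of the reference each species was counted against in this difference was not tested.

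Of 49 further imprinted genes, 41 were in the table and tested. In Mus 12 rose and 6 fell at day 7, and again 12 and 6 at day 14. That is 29% and 15% of the 41, against 27.0% and 26.7% of all genes at day 7 and 21.6% and 22.1% at day 14. In Acomys 17 rose and 10 fell at day 7 (41% and 24%, against 30.4% and 31.4% of all genes). At day 14, 14 rose and 6 fell (34% and 15%, against 18.9% and 20.0%). Their median log2 changes were 0.29, 0.23, 0.02 and 0.09 in the same order, close to the median of all genes, against 1.74, 2.07, 1.45 and 2.16 for the 10 growth genes. The 10 genes and this list were chosen with earlier results of these data known, so the contrast between them may partly reflect that choice. Among those that rose were Peg10, a retrotransposon-derived gene of the placenta, by 1.89 ± 0.27 (adjusted p = 3.7e-06) in Mus and 3.38 ± 0.24 (adjusted p = 9.9e-11) in Acomys at day 7, and Nnat, encoding the membrane protein neuronatin, by 3.29 ± 0.24 (adjusted p = 1.4e-09) in Acomys at day 14. The organic cation transporter gene Slc22a3 was among those that fell, with changes at day 7 of -3.86 ± 0.46 (adjusted p = 3.8e-07) in Mus and -5.05 ± 0.35 (adjusted p = 7.9e-11) in Acomys.

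Of 23 listed ligands, receptors, binding proteins and RNA-binding regulators of IGF2 signalling, 21 were in the table. In Mus 7 rose and 9 fell at day 7 (33% and 43%, against 27.0% and 26.7% of all genes). At day 14 in Mus, 7 rose and 5 fell (33% and 24%, against 21.6% and 22.1%). In Acomys 11 rose and 4 fell at day 7 (52% and 19%, against 30.4% and 31.4%). At day 14 in Acomys, 9 rose and 3 fell (43% and 14%, against 18.9% and 20.0%). Igf2r, the imprinted receptor that clears IGF2 from the cell surface, rose in Mus at day 7 from 226.8 ± 2.74 (n = 3) to 559 ± 72.4 CPM (n = 4), by 1.30 ± 0.15 (adjusted p = 3.3e-07), and stood at 211 ± 45.1 and 210.0 ± 39.8 CPM (n = 4 each) in Acomys skin and day 7 wounds. The Acomys change of Igf2r minus the Mus change was -1.31 ± 0.20 at day 7 (adjusted p = 3.9e-05) and -0.78 ± 0.20 at day 14 (adjusted p = 0.00752). The ligand Igf1 rose in Mus by 1.25 ± 0.23 (adjusted p = 8.4e-05) and 1.87 ± 0.23 (adjusted p = 1.5e-06), and the Acomys change minus the Mus change was -1.25 ± 0.30 at day 14 (adjusted p = 0.00446). The mRNA-binding protein gene Igf2bp2, whose product binds Igf2 mRNA, rose at day 7 in Mus by 2.95 ± 0.26 (adjusted p = 4.6e-09) and in Acomys by 2.18 ± 0.22 (adjusted p = 3.2e-08). Its relative Igf2bp3 rose in Acomys by 2.32 ± 0.27 (adjusted p = 2.0e-07) at day 7 and 1.94 ± 0.27 (adjusted p = 8.4e-06) at day 14.

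Among the binding proteins, which carry IGFs and limit their access to receptors, Igfbp5 at day 7 and Igfbp2 at day 14 went in opposite directions in the species. Igfbp5 fell in Mus day 7 wounds (-2.13 ± 0.25, adjusted p = 3.9e-07), from 777 ± 106 (n = 3) to 177 ± 52.7 CPM (n = 4). In Acomys it rose from 560 ± 209 CPM in skin to 1284 ± 181 CPM at day 7 (n = 4 each), by 1.2 ± 0.23 (adjusted p = 1.5e-04), and the difference of changes was 3.33 ± 0.34 (adjusted p = 2.8e-07). Igfbp2 went the other way at day 14: it rose in Mus by 1.73 ± 0.30 (adjusted p = 7.0e-05) and fell in Acomys (-1.43 ± 0.25, adjusted p = 1.0e-04), a difference of changes of -3.16 ± 0.39 (adjusted p = 6.6e-06). The opposition did not hold on the other day of either gene. At day 7 Igfbp2 fell in Mus (-0.95 ± 0.32, adjusted p = 0.0170) and in Acomys (-2.88 ± 0.27, adjusted p = 8.8e-09). At day 14 mean Igfbp5 was 868 CPM in Mus and 721 CPM in Acomys, above the skin mean in each.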

How the data were processed

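RNA-seq of back skin and wounds of Acomys cahirinus and Mus musculus was analysed from 3 deposited tables with 46 count columns. The table of both species holds counts that the authors deposited as whole numbers, and the 2 tables of single species hold the authors' expected counts, which were rounded. Per the submitters' processing notes, the mouse build was mm9 and the tools were Bowtie2 and RSEM 1.2.28, with Trimmomatic 0.32 and FastQC 0.11.4. How the shared table was made and whether counting used strand are not given in the sources used here. Mus rows with the same symbol were summed. An annotation table of the Acomys assembly (deposited identity in percent, text fields otherwise) gave only gene matches.

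Spike-in rows (34 rows, 0.679 to 1.96% of counts) were removed. In R 4.3.3 with edgeR 4.0.16, 1 model with 6 groups was fitted to 14514 genes (filterByExpr, TMM, robust quasi-likelihood F-test, two-sided), for 11 contrasts; p-values were adjusted by Benjamini-Hochberg over all genes. The SE was taken from the F statistic. The common biological coefficient of variation was 0.186. On simulated counts, 56% of 2-fold and 98% of 4-fold changes were recovered for Mus day 7 (14492 genes), 79% and 95% for Acomys day 14 (14498 genes), and 44% and 85% for the day 14 difference of changes (14481 genes), with 0 in the wrong direction. Each simulation altered 100 genes per size of change in a single group, and left genes of the lowest mean level unaltered. Far more genes were called in the data, so these rates need not hold for the tests above.

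All 10 genes are named. Of the 2 further gene lists, at most 3 genes per direction and contrast with the largest called change are named. The Igfbp5 change in Acomys at day 7, the Igfbp5 levels at day 14 and the Igfbp2 change in Mus at day 7 fall outside that rule. They were chosen after their values were seen. For likeness to Igf2, log2 CPM with a prior count of 2 was used. The members and lists were chosen with earlier results of these data known. Alternatives were RLE size factors, DESeq2 1.42.0, only the compared groups, a replicate block, structural RNAs left out, the tables of single species, and each library left out in turn. A fit with no filter was also run, but it repeats the main fit, where the filter removed no genes. Leaving out 3 Mus wound libraries poor in muscle markers was chosen after seeing the data.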

Additional observations from a re-analysis of the deposited data

Results flagged for a closer look

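Igf2 in Mus day 14 replicate 2 stood at 92.5 CPM, far from the other 3 libraries of its group at 9.9 to 23.6 CPM. Plagl1 in Acomys skin replicate 3 was 9.61 CPM, where the other 3 were 4.04 to 4.91 CPM. Grb10 in Acomys day 14 replicate 1 was 395 CPM, where the other 3 were 289 to 306 CPM. In each case the gap to the nearest library took up more of the group's range than the 95% critical value of Dixon's test for 4 samples. Chance marks about 1 in 20 groups in this way. All 10 genes were screened in each group of 4 libraries, so a few such marks can be expected from chance.

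The change from skin to wound differed between the species, by edgeR's test of the difference itself, in 9 cases. At day 7 the Acomys change minus the Mus change was 1.37 for H19, -1.79 for Mest, 3.93 for Peg3, -1.62 for Plagl1 and 1.03 for Ndn on the log2 scale. At day 14 it was 1.75 for H19, -1.80 for Mest, 4.79 for Peg3 and 0.80 for Ndn. The Mest values carry the doubt on its skin counts given above, and the gap was narrower in the tables of each species alone.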

How the results depend on the processing

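Of the 110 values of the 10 genes in the 11 comparisons, all 110 kept their direction and their side of the threshold with RLE size factors and without small structural RNAs, and 108 did with DESeq2. Omitting the filter on low counts could change nothing, because the filter had removed no genes and the fit was the same. The number of the 10 genes called between Mus days 14 and 7 went from 5 to 2 with only the compared groups in the model, to 2 without the 3 Mus wound libraries poor in muscle markers, and to between 2 and 7 as single libraries were left out; the cause was not tested. In the same comparison the number called among 41 other imprinted genes, 13, was 7 without those 3 libraries and 6 without Mus day 7 replicate 1. The number of all genes called for Acomys day 7 against skin, 8969, was 15541 in the larger table of Acomys alone. No other count of called genes moved by over 1.5 times. With only the compared groups, Dlk1 fell below the filter for Acomys day 7 against skin and for the species in skin and had no value there. Values that changed sign were all uncalled and near 0. Leaving out single libraries, the ranges were -0.086 to 0.13 for H19 in Mus at day 7, -0.21 to 0.37 for Peg3 in Mus at day 7, and -0.13 to 0.28 for Peg3 between the species at day 14. For Cdkn1c they were -0.097 to 0.091 between the species in skin, -0.0096 to 0.29 at day 7, and -0.041 to 0.26 for the day 7 difference of changes, which was -0.011 without the 3 muscle-poor libraries. For Grb10 the day 7 difference of changes ran from -0.34 to 0.024. Counts of 0 to 4 per library limit Dlk1 in skin and in Acomys day 7 wounds.

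With replicate number as a block, the numbers called were 7 and 9 for Mus days 7 and 14 against skin, 4 for Mus day 14 against day 7, 9, 10 and 6 for Acomys in the same order, and 5 and 5 for the differences of changes. Under this block Peg3 in Mus at day 14 (0.56, adjusted p = 0.0239), Grb10 between Mus days (0.46, adjusted p = 0.0162) and Plagl1 in the day 14 difference of changes (-0.80, adjusted p = 0.0449) became called, and Igf2 (0.99, adjusted p = 0.0831) and Mest (-0.69, adjusted p = 0.0597) between Mus days ceased to be. The labels do not say that equal numbers mark a shared animal or batch. The deposited column names also carry matching, non-consecutive numbers across the days of a species, and they do not say what these mark. Deviations of same-numbered libraries correlated at 0.0753 to 0.0983 and 0.0611 to 0.143 for Mus day 0 with days 7 and 14, and at -0.16 to 0.58 for the other 4 pairs of groups. Each of the 3 Mus libraries at days 7 and 14 with a same-numbered skin library correlated best with it, a hint from the data and not the design.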
